A study of Mus musculus with 32 samples.

Results

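The 9 genes described here encode receptor chains for the inflammatory cytokines: Ifnar1 and Ifnar2 (type I interferons), Ifngr1 and Ifngr2 (interferon gamma), Il1r1 and Il1rap (interleukin-1), Tnfrsf1a and Tnfrsf1b (tumour necrosis factor, TNF) and Il6ra (interleukin-6). They were chosen by name, and all 9 were found among the 45706 genes of the tables and passed the expression filter that left 15186 genes for testing. Each library held between 81 and 3952 expected counts for any 1 of them.

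RNA sequencing was done on haematopoietic stem and progenitor cells (HSPCs), sorted from bone marrow as Lin- Kit+ Sca1+ cells carrying both CD45 alleles (CD45.1+/2+), which marks them as progeny of wild-type donor marrow. All mice were lethally irradiated C57BL/6J recipients (CD45.2) of 800000 such wild-type cells mixed with 200000 CD45.1 partner cells. In AF9_Experienced mice the partner cells were homozygous for the human MLL-AF9 leukaemia fusion and for the doxycycline-dependent activator rtTA, so that doxycycline could switch the fusion on. In Naive mice the partner cells were hMLL-AF9-null and homozygous for rtTA only. Leukaemia was induced with doxycycline 6 to 8 weeks after the transplant, for 5 weeks, and left to regress without it for 4 weeks. The labels do not say whether Naive mice were given doxycycline, nor which promoter drove rtTA, nor the age of the mice at sacrifice. Each kind of mouse then received lipopolysaccharide (LPS), a bacterial cell wall product sensed by Toll-like receptor 4, or phosphate-buffered saline (PBS), and was killed 24 h later. The 4 groups were experienced LPS, experienced PBS, naive LPS and naive PBS, with 4 biological replicates each (n = 4). The labels do not say that replicates were separate mice, and the p-values given here cover only how far these samples scatter, which may be technical.

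Library totals ran between 7.72 M and 22.3 M expected counts, M standing for mega. The highest shares of mitochondrial counts in their groups were in experienced LPS replicate 4 (7.30%), experienced PBS replicate 4 (5.94%) and naive LPS replicate 2 (4.26%), with naive LPS replicate 4 close to the last (4.16%). Experienced LPS replicate 4 also stood apart in expression, with correlations of 0.912 to 0.917 with the other libraries of its group across genes. Of the 9 markers of the sorted cells, 9 were detected.

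Cytokine receptors of this kind work in pairs or trimers at the cell surface. Type I and type II interferon receptors and the interleukin-6 receptor signal through JAK kinases and STAT transcription factors, while the interleukin-1 and TNF receptors lead to NF-kB. HSPCs are known to respond to these cytokines directly, and interferons and interleukin-1 can push stem cells out of quiescence.

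The promoters of some of the receptor genes called after LPS are shown here for the sequence context. They are given as the 250 bases before the RefSeq start site (GRCm38.p6), read 5′ to 3′ along the strand of the gene. Ifnar1 and Il6ra differed after LPS in both kinds of mice, and Ifngr1 was the 1 receptor gene called higher. Tnfrsf1b is shown for an interferon motif beside its start site, not for the size of its difference. Il1r1, which was also called in naive mice, is not shown.
Ifnar1 chr16:91484965-91485214 (plus strand): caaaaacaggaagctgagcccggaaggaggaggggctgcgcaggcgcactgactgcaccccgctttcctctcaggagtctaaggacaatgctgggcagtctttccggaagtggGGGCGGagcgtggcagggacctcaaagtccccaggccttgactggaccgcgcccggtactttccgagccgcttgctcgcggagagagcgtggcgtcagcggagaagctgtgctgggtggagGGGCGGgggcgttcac
Ifngr1 chr10:19591699-19591948 (plus strand): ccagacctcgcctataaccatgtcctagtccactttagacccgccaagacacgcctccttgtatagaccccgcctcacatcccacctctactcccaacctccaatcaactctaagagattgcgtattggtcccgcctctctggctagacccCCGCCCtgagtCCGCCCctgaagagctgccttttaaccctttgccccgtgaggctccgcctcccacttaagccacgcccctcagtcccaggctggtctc
Tnfrsf1b chr4:145246871-145247120 (minus strand): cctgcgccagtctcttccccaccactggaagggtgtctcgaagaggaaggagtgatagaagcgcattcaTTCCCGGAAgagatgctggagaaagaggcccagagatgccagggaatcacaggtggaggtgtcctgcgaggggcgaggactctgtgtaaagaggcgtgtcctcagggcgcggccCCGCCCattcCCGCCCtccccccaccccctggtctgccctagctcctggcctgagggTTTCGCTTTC
Il6ra chr3:89913197-89913446 (minus strand): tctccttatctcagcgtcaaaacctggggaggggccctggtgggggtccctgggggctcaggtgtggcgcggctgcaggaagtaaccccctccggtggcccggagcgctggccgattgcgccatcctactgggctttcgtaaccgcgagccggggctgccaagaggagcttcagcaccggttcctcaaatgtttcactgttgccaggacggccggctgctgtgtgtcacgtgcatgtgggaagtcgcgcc
Capitals mark matches, on either strand, to the interferon-stimulated response element core (GAAA, then any 2 bases, then GAAA), the gamma-activated site TTCNNNGAA, the Sp1 box GGGCGG, the TATA box TATAAA or the NF-kB consensus. The search covered 300 bases, from 250 before to 50 after the start site, in 10 promoters of the 9 genes, since Il1r1 has a pair of them. The response element core was found in Tnfrsf1b, at bases -10 to -1 from the start site, and in Il1rap, at 21 to 30 after it, against 3.44% of all 32851 RefSeq promoters. The gamma-activated site was found in Tnfrsf1b, Tnfrsf1a, Ifnar2 and Ifnar1, against 8.30% of all promoters. In Ifnar1 it ran from -5 to 4 across the start site, so it is not whole in the sequence above. The Sp1 box was found in 7 genes, against 35.7%, and in Ifngr2 a pair of Sp1 boxes overlapped by a base. TATAAA was in 0 of the 10 receptor promoters, against 13.6% of all, and the NF-kB consensus in Il1r1 and Ifngr2, against 8.46%. Il6ra had no match to any of these letters in the window. These matches are descriptions of sequence and say nothing of which factors bind.

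After LPS, 2 of the 9 receptor genes differed from PBS in experienced mice and 5 of 9 in naive mice. Ifnar1 and Il6ra were lower in both. In naive mice Il1r1 and Tnfrsf1b were also lower, and Ifngr1 was higher. The largest of these differences was that of Il6ra in naive mice, which fell by 1.58 on the log2 scale. No receptor gene passed the test between experienced and naive mice, or for a difference in their response to LPS. Over all 15186 tested genes, 12.8% were called in experienced mice (4.52% higher, 8.26% lower) and 21.7% in naive mice (9.81% higher, 11.9% lower). Calls here are by the quasi-likelihood test of edgeR, adjusted over all tested genes after Benjamini and Hochberg, with 0.05 as the limit. Among the 9 receptor genes, 0 were higher and 2 lower in experienced mice, and 1 was higher and 4 were lower in naive mice. The counts over all genes moved with single libraries. In experienced mice 1940 genes were called with all libraries, against 3157 without experienced LPS replicate 4, and 1065, 1105, 1108, 1156 and 1230 without experienced PBS replicate 1, experienced LPS replicate 3, experienced PBS replicate 2, experienced LPS replicate 1 and experienced LPS replicate 2. In naive mice 3293 genes were called with all libraries, against 2089 and 2135 without naive PBS replicate 2 and naive PBS replicate 4. In bulk RNA, fewer cells with a transcript and less of it per cell cannot be told apart. Ly6a, which encodes the sorting marker Sca1, was higher after LPS by 1.87 on the log2 scale in experienced mice (SE 0.34) and by 1.72 in naive mice (SE 0.34), and the part of the gate in the receptor differences was not tested.

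**Figure D1:**
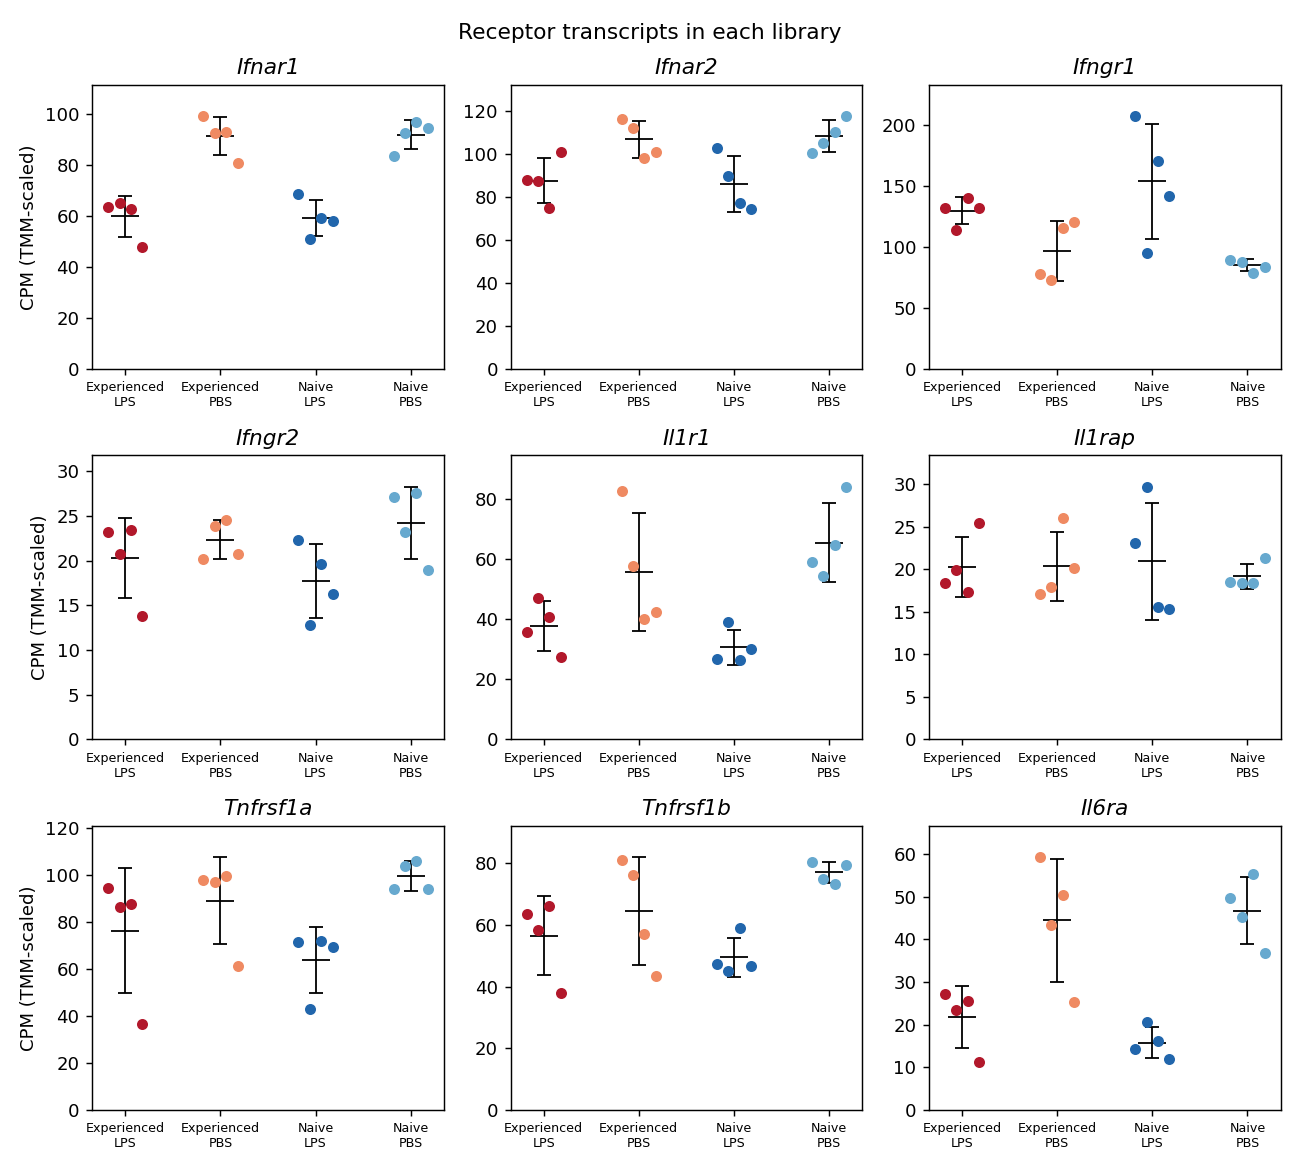
Expression of the 9 receptor genes in CPM (library-scaled counts, TMM-scaled, vertical axis from 0) in each library, by group. Each point is 1 library, the bar is the mean and the whisker the SD (n = 4); Ifnar1 was between 48.0 and 65.2 CPM in experienced LPS libraries and between 81.1 and 99.2 CPM in experienced PBS libraries.

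Ifnar1 and Ifnar2 together bind type I interferon, with Ifnar2 holding the ligand with high affinity. Ifnar1 (ENSMUSG00000022967, GRCm38 chromosome 16, 91485238 to 91507441) had 63.6, 65.2, 63.0 and 48.0 CPM (counts scaled to the TMM-adjusted library size) in experienced LPS libraries, against 99.2, 92.5, 93.2 and 81.1 CPM in experienced PBS libraries. It had 68.6, 51.1, 59.4 and 58.2 CPM in naive LPS libraries, against 83.8, 92.5, 96.9 and 94.8 CPM in naive PBS libraries. In both kinds of mice every LPS library lay below every PBS library in CPM. The log2 difference was -0.61 in experienced mice (SE 0.13, edgeR adjusted p = 0.00508) and -0.63 in naive mice (SE 0.13, edgeR adjusted p = 0.00261). The same non-overlap, with LPS lower, was seen for 10.9% of tested genes in experienced mice and for 16.8% in naive mice. Ifnar2 (ENSMUSG00000022971, chromosome 16, 91372783 to 91405589) had 87.8, 87.4, 74.7 and 101 CPM in experienced LPS libraries, against 116, 112, 98.2 and 101 CPM in experienced PBS libraries. In naive LPS libraries it had 103, 90.0, 77.4 and 74.6 CPM, against 100.5, 105, 110.3 and 117.5 CPM in naive PBS libraries. The highest LPS library overlapped the PBS libraries in each kind of mouse, and Ifnar2 was not called in either, with differences of -0.29 in experienced mice (SE 0.13, edgeR adjusted p = 0.154) and -0.33 in naive mice (SE 0.13, edgeR adjusted p = 0.0742). The naive difference passed when naive LPS replicate 1 was left out (-0.43, edgeR adjusted p = 0.0334), with upper-quartile scaling (-0.41, 0.0352) and by DESeq2 (-0.33, 0.0482).

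The level of Ifnar1 also depended on the unit. The transcript length that RSEM estimated for it was 1577 bases in experienced LPS replicate 4, against 3443 to 3579 in the other experienced LPS libraries, and 2446 bases in naive LPS replicate 2, against 3357 to 3500. Since TPM divides by that length, experienced LPS replicate 4 had 40.2 TPM, against 20.2 to 22.2 TPM in the others of its group, while it had the lowest CPM of its group. In TPM that library lay above every experienced PBS library (28.27 to 39.65), so these groups overlapped. The call was lost when the test was run by limma on log2(TPM + 1), where the experienced difference was -0.43 (adjusted p = 0.264) and the naive -0.60 (adjusted p = 0.0857). Without experienced LPS replicate 4, an alternative added after the data were seen, the experienced difference by the same test was -0.65 (adjusted p = 0.0416).

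**Figure D2:**
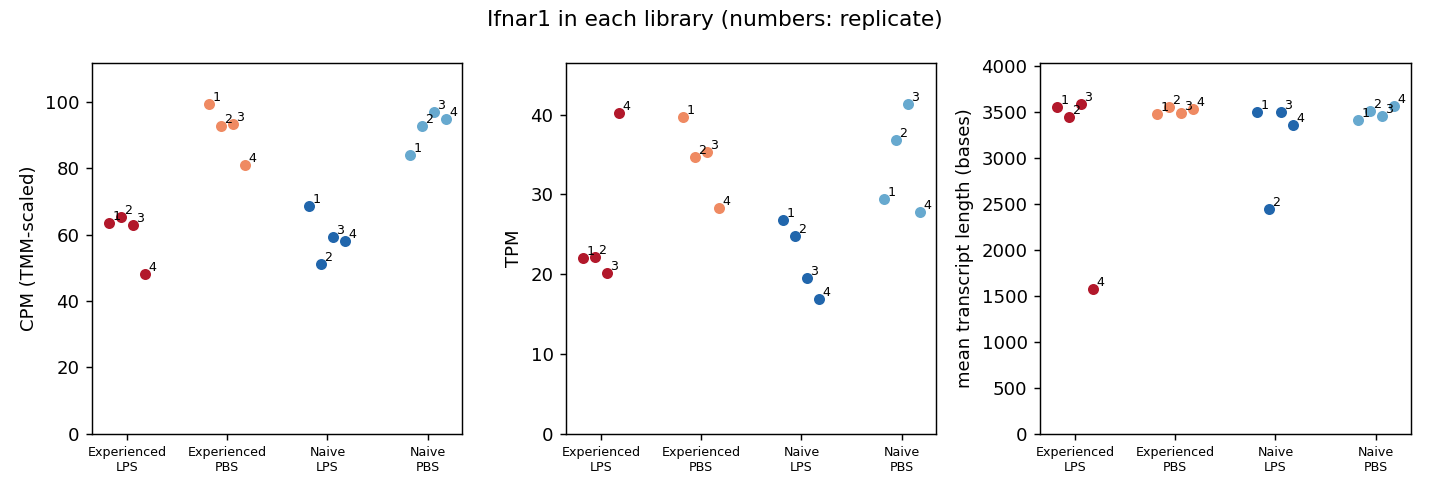
Ifnar1 in each library as CPM, as TPM and as the RSEM mean transcript length in bases, each axis from 0, with the replicate number beside each point. Experienced LPS replicate 4 had 48.0 CPM and 40.2 TPM at a length of 1577 bases, which sets it apart from the other 3 libraries of its group on all 3 scales.

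The interferon gamma receptor pairs Ifngr1, the ligand-binding chain, with Ifngr2, the chain that brings in JAK2. Ifngr1 (ENSMUSG00000020009, chromosome 10, 19591949 to 19610229) had 132, 114, 140.5 and 132 CPM in experienced LPS libraries, against 77.8, 72.7, 115 and 120.5 CPM in experienced PBS libraries. It had 207, 95.04, 171 and 142 CPM in naive LPS libraries, against 89.3, 88.0, 78.3 and 83.6 CPM in naive PBS libraries. In CPM all naive LPS libraries lay above all naive PBS libraries. In TPM they overlapped, with naive LPS replicate 2 (59.93) below naive PBS replicates 2 (64.12) and 3 (65.39). Experienced LPS and PBS libraries overlapped in CPM, with PBS replicates 3 and 4 above LPS replicate 2. The log2 difference was 0.42 in experienced mice (SE 0.20, edgeR adjusted p = 0.188) and 0.86 in naive mice (SE 0.21, edgeR adjusted p = 0.00788), so that Ifngr1 rose in naive mice. The interaction, the response of experienced minus naive mice, was -0.44 (SE 0.29, edgeR adjusted p = 0.884). By limma on log2(TPM + 1) the naive call was not reached (0.68, adjusted p = 0.0660). Ifngr2 (ENSMUSG00000022965, chromosome 16, 91547072 to 91565623) had 23.2, 20.8, 23.4 and 13.8 CPM in experienced LPS libraries, against 20.2, 23.9, 24.5 and 20.7 CPM in experienced PBS libraries, and 22.3, 12.8, 19.6 and 16.3 CPM in naive LPS libraries, against 27.1, 23.2, 27.6 and 18.9 CPM in naive PBS libraries. Its groups overlapped, and the differences were -0.13 in experienced (edgeR adjusted p = 0.717) and -0.44 in naive mice (edgeR adjusted p = 0.124). The experienced difference was 0.04 without experienced LPS replicate 4. By limma on log2(TPM + 1) the naive difference was -0.70 (adjusted p = 0.0615), and it passed when experienced LPS replicate 4 was left out of that test (adjusted p = 0.0345), an alternative added after the data were seen.

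Interleukin-1 signals through Il1r1, which binds the ligand, and Il1rap, the accessory chain that completes the complex. Il1r1 (ENSMUSG00000026072, chromosome 1, 40225080 to 40317257) had 35.6, 47.1, 40.6 and 27.5 CPM in experienced LPS libraries, against 82.7, 57.7, 40.1 and 42.3 CPM in experienced PBS libraries. In naive LPS libraries it had 26.9, 39.2, 26.5 and 30.0 CPM, against 59.1, 54.5, 64.7 and 84.2 CPM in naive PBS libraries. The naive groups were apart, and the experienced groups overlapped, with PBS replicates 3 and 4 as low as LPS libraries. The log2 difference was -0.56 in experienced mice (SE 0.23, edgeR adjusted p = 0.116) and -1.10 in naive mice (SE 0.23, edgeR adjusted p = 0.00352). The interaction was 0.54 (SE 0.32, edgeR adjusted p = 0.884). Without experienced PBS replicate 1 the experienced difference was -0.31. Il1rap (ENSMUSG00000022514, chromosome 16, 26581704 to 26730117) had 17.4 to 25.4 CPM in experienced LPS libraries, 17.2 to 26.1 in experienced PBS, 15.3 to 29.7 in naive LPS and 18.4 to 21.3 in naive PBS libraries. It did not pass the test, with differences of -0.01 in experienced mice (95% interval -0.46 to 0.44) and 0.12 in naive mice (-0.32 to 0.57), and both changed sign in some fits that left out 1 library.

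TNF binds a pair of receptors, Tnfrsf1a, which carries a death domain and is found on most cells, and Tnfrsf1b, which is more restricted and lacks that domain. Tnfrsf1a (ENSMUSG00000030341, chromosome 6, 125349362 to 125362484) had 94.5, 86.5, 87.9 and 36.7 CPM in experienced LPS libraries, against 98.1, 97.2, 99.8 and 61.5 CPM in experienced PBS libraries, and 71.5, 43.0, 72.0 and 69.4 CPM in naive LPS libraries, against 94.2, 104, 106 and 94.1 CPM in naive PBS libraries. The 2 naive groups did not overlap in CPM, but in TPM naive LPS replicate 1 (58.6) lay above naive PBS replicate 4 (53.6). The lowest value in each of 3 groups was in a library with a high mitochondrial share: replicate 4 of both experienced groups and replicate 2 of naive LPS, and whether that share had a part in it was not tested. The log2 difference was -0.22 in experienced mice (edgeR adjusted p = 0.608) and -0.64 in naive mice (SE 0.24, edgeR adjusted p = 0.0717), and the naive one passed when experienced LPS replicate 4 was left out (-0.62, edgeR adjusted p = 0.0143), with upper-quartile scaling (-0.71, 0.0451), by DESeq2 (-0.64, 0.0427), by limma on log2(TPM + 1) (-0.70, 0.0448) and in the fit of only the naive groups (-0.64, 0.0186). The experienced difference was 0.03 without experienced LPS replicate 4, and -0.34 without experienced LPS replicate 1 or experienced PBS replicate 4. Tnfrsf1b (ENSMUSG00000028599, chromosome 4, 145213463 to 145246870) had 63.7, 58.3, 66.0 and 37.8 CPM in experienced LPS libraries, against 81.1, 76.2, 57.0 and 43.3 CPM in experienced PBS libraries. In naive LPS libraries it had 47.4, 45.1, 58.8 and 46.7 CPM, against 80.5, 74.9, 73.4 and 79.5 CPM in naive PBS libraries, and these 2 groups were apart. The difference was -0.19 in experienced mice (edgeR adjusted p = 0.573) and -0.64 in naive mice (SE 0.19, edgeR adjusted p = 0.0267). That naive call ended when naive LPS replicate 1 (-0.62, adjusted p = 0.0606), 2 (-0.57, 0.0718) or 4 (-0.60, 0.0577), or naive PBS replicate 1 (-0.60, 0.0695), 2 (-0.65, 0.0539) or 4 (-0.61, 0.0718) was left out. The experienced difference was -0.02 without experienced LPS replicate 4, -0.06 and -0.10 without experienced PBS replicates 1 and 2, and -0.32 without experienced PBS replicate 4.

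Il6ra encodes the ligand-binding chain of the interleukin-6 receptor, which signals only together with gp130, the product of Il6st. Il6ra (ENSMUSG00000027947, chromosome 3, 89864059 to 89913196) had 27.1, 23.5, 25.6 and 11.1 CPM in experienced LPS libraries, against 59.2, 43.3, 50.4 and 25.2 CPM in experienced PBS libraries. It had 14.2, 20.5, 16.1 and 11.9 CPM in naive LPS libraries, against 49.8, 45.2, 55.3 and 36.7 CPM in naive PBS libraries. All naive LPS libraries lay below all naive PBS libraries, and in experienced mice PBS replicate 4 fell among the LPS libraries. The log2 difference was -1.02 in experienced mice (SE 0.27, edgeR adjusted p = 0.0225) and -1.58 in naive mice (SE 0.28, edgeR adjusted p = 0.00109). The experienced call was lost without experienced PBS replicate 1 (-0.85, adjusted p = 0.0857) or replicate 3 (-0.96, adjusted p = 0.0525), by limma on log2(TPM + 1) (-1.06, adjusted p = 0.0538), and in the fit of only the experienced groups (-1.004, adjusted p = 0.0788). Il6st was lower after LPS in naive mice, by 0.70 on the log2 scale (SE 0.23, edgeR adjusted p = 0.0412), a call that ended in 10 of 16 fits that left out 1 library (-0.77 to -0.60) and by limma on log2(TPM + 1). In experienced mice it was -0.51 (adjusted p = 0.161).

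**Figure D3:**
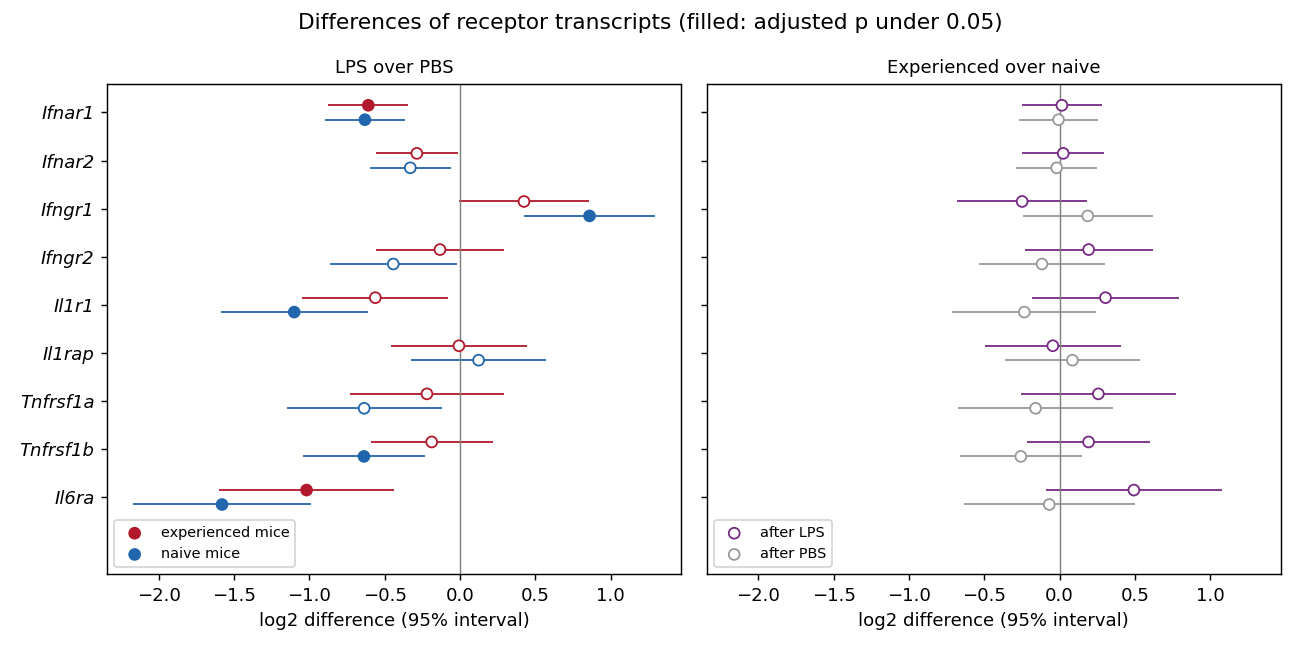
Log2 differences of the 9 receptor genes with 95% intervals (horizontal axis), LPS over PBS on the left and experienced over naive on the right. Filled points passed an adjusted p of 0.05: Ifnar1 and Il6ra in both kinds of mice and Ifngr1, Il1r1 and Tnfrsf1b in naive mice, with no filled point on the right.

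In CPM, the libraries of 6 of the 9 receptor genes did not overlap between naive LPS and naive PBS, 1 higher and 5 lower, against 29.3% of all tested genes, of which 12.5% were higher and 16.8% lower. In experienced mice 1 of 9 did not overlap, lower after LPS, against 17.3% of all genes, of which 6.45% were higher and 10.9% lower. Between experienced and naive mice, 0 of 9 did not overlap after LPS, against 1.62% of all genes (0.606% higher, 1.01% lower), or after PBS, against 4.04% (1.82% higher, 2.22% lower).

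For experienced against naive mice, no receptor gene passed the test. After LPS, after PBS, averaged over both and in the interaction, edgeR called 0 of 9 receptor genes and 0.00% of the 15186 tested genes. At an unadjusted edgeR p under 0.05, 0 of 9 receptor genes passed in each of these, against 491 genes after LPS, 451 after PBS, 294 averaged and 695 in the interaction. Each of these counts is below a share of 0.05 of the 15186 tested genes, which such a limit passes when nothing differs. The 0 of 9 therefore does not set the receptor genes apart. DESeq2's Wald test called 2, 2, 2 and 1 genes, none of them a receptor gene. The intervals were narrow for Ifnar1 (-0.25 to 0.28 after LPS, -0.27 to 0.26 after PBS) and wider for Il6ra (-0.09 to 1.08 after LPS, -0.64 to 0.50 after PBS). In the interaction the largest estimate was that of Il6ra, 0.56 (95% interval -0.25 to 1.38, adjusted p = 0.884), and the adjusted p of the 9 genes lay between 0.884 and 0.984.

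Compared per length, Ifnar2, Tnfrsf1a and Ifngr1 had the highest mean levels in every group, and Ifngr2, Il1rap and Il6ra the lowest. Il6ra was last in the LPS groups and Il1rap in the PBS groups. In experienced LPS libraries the order by mean TPM was Ifngr1 (86.8), Ifnar2 (64.6), Tnfrsf1a (48.0), Ifnar1 (26.1), Tnfrsf1b (17.6), Il1r1 (9.44), Ifngr2 (8.10), Il1rap (6.00) and Il6ra (4.86). In experienced PBS libraries it was Ifnar2 (80.0), Ifngr1 (70.0), Tnfrsf1a (65.2), Ifnar1 (34.5), Tnfrsf1b (22.5), Il1r1 (15.3), Il6ra (11.3), Ifngr2 (10.0) and Il1rap (6.35). In naive LPS libraries it was Ifngr1 (101.9), Ifnar2 (62.7), Tnfrsf1a (41.3), Ifnar1 (22.0), Tnfrsf1b (15.1), Il1r1 (7.51), Ifngr2 (6.48), Il1rap (6.00) and Il6ra (3.62). In naive PBS libraries it was Ifnar2 (74.8), Tnfrsf1a (66.4), Ifngr1 (59.9), Ifnar1 (33.8), Tnfrsf1b (25.5), Il1r1 (17.4), Il6ra (11.6), Ifngr2 (10.9) and Il1rap (5.66). The TPM ranges of neighbours in these orders overlapped, except between Tnfrsf1b and Il1r1 in 3 groups (not in experienced PBS), between the third gene and Ifnar1 in 3 groups (not in experienced LPS) and between Ifngr2 and Il1rap in naive PBS. Over all 16 libraries the mean TPM of these genes stood above 35.3% (Il1rap) to 90.1% (Ifngr1) of the tested genes.

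The ratio of paired chains within a library is given as a description, with no test. Ifngr1 to Ifngr2 averaged 11.4 ± 4.14 in experienced LPS and 7.23 ± 2.56 in experienced PBS libraries (SD, n = 4 each), and 15.6 ± 2.07 in naive LPS and 5.56 ± 0.596 in naive PBS libraries. The naive ratios ran from 12.7 to 17.7 after LPS and from 4.68 to 5.99 after PBS, without overlap. Il1r1 to Il1rap averaged 1.70 ± 0.620 in experienced LPS and 2.53 ± 1.29 in experienced PBS libraries, and 1.35 ± 0.329 in naive LPS and 3.07 ± 0.390 in naive PBS libraries. Ifnar2 to Ifnar1 averaged 2.23 to 2.79 and Tnfrsf1a to Tnfrsf1b 2.59 to 3.05 over the 4 groups. Il6st to Il6ra averaged 1.93 ± 0.416 in experienced LPS and 1.47 ± 0.260 in experienced PBS libraries, and 2.42 ± 0.656 in naive LPS and 1.29 ± 0.131 in naive PBS libraries.

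**Figure D4:**
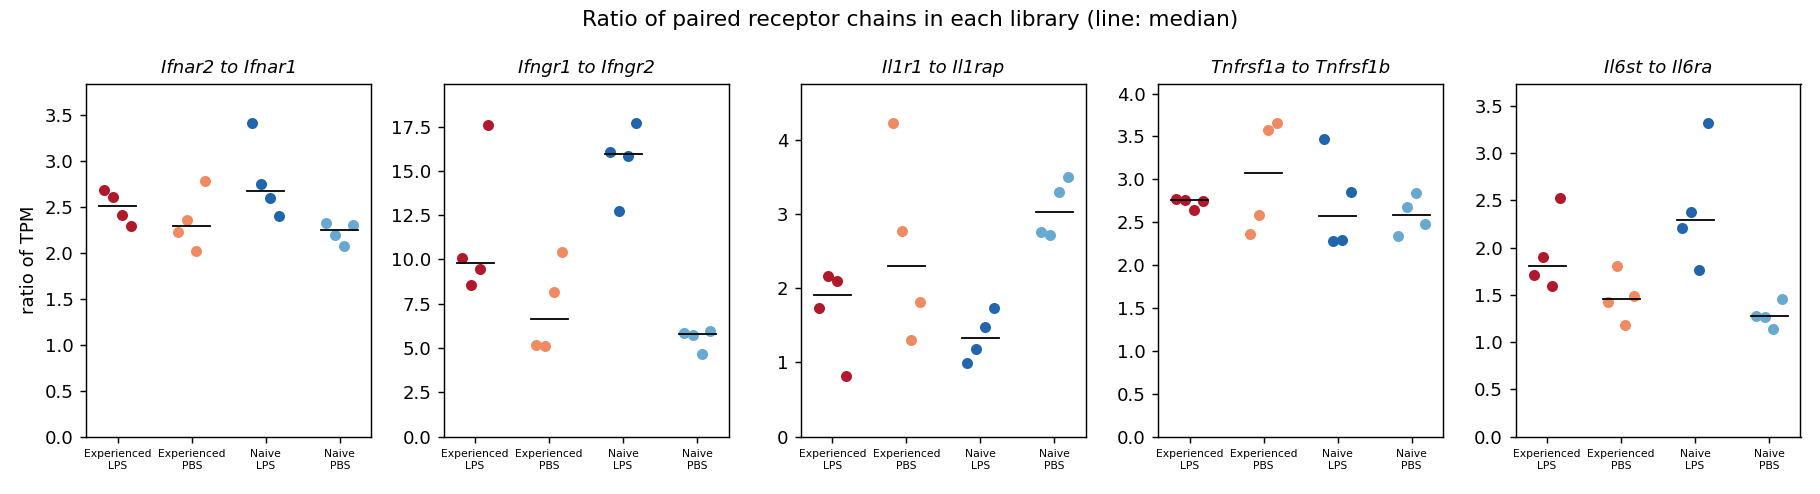
Ratio of the TPM of paired receptor chains in each library (vertical axes from 0), by group, with the median as a line. The ratio of Ifngr1 to Ifngr2 lay between 12.7 and 17.7 in naive LPS libraries and between 4.68 and 5.99 in naive PBS libraries.

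Correlations of the receptor genes with other transcripts are given as a description with no p. They were taken across the 16 libraries, which share the LPS contrast and differ in depth. The other transcripts named were picked, in these same libraries, as those most correlated with each receptor gene among the tested genes. High values were therefore bound to be found, and they do not show a link between the genes. Deviations from group means come from the same libraries and are not a separate check. The correlation of log2 CPM, and in brackets that of deviations from group means, was 0.98 (0.94) for Ifnar1 with Cbx2 and 0.98 (0.93) with Npc1, and 0.98 (0.92) for Il6ra with Irf8 and 0.95 (0.83) with Myo1f. It was 0.97 (0.94) for Ifngr1 with Zdhhc13 and 0.95 (0.93) with Tmem64, and 0.94 (0.87) for Il1r1 with Rbfox2 and 0.93 (0.85) with Rassf2. For Tnfrsf1a it was 0.98 (0.98) with Mapk14 and 0.97 (0.98) with Tbc1d22a, and for Tnfrsf1b 0.98 (0.97) with Arhgap9 and 0.97 (0.94) with Saraf. The remaining pairs were Ifnar2 with Dennd5a and Ppp1r13b, Ifngr2 with Pik3r6 and Slc8b1, and Il1rap with Pds5b and Zbtb33, at 0.92 to 0.96. Among the receptor genes themselves, Ifnar1 and Il6ra had 0.88 (0.53) and Ifngr1 and Il1r1 -0.88 (-0.69).

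Ifnar2, Il10rb, Ifnar1 and Ifngr2 lie beside each other on chromosome 16. Of the 6 other tested genes within 100 kb of the span of these 3 interferon receptor genes, 1 was called in experienced mice, Gart, an enzyme of purine synthesis, at 0.75 (SE 0.19, edgeR adjusted p = 0.0174), and 0 of 6 in naive mice. Among all tested genes, 12.8% were called in experienced and 21.7% in naive mice. Il10rb, the shared chain of the interleukin-10 receptor family, had a difference of -0.29 in experienced and -0.08 in naive mice.

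Of the ligands, 3 of 11 listed genes were abundant enough to test, at low levels. Il6 rose in both kinds of mice, by 2.68 on the log2 scale in experienced (SE 0.65, edgeR adjusted p = 0.0132) and 3.70 in naive mice (SE 0.64, edgeR adjusted p = 0.000968). The experienced Il6 call ended in the fit of only the experienced groups (2.703, adjusted p = 0.0534). In naive mice Il1b rose by 2.61 (SE 0.65) and Tnf fell by 1.20 (SE 0.36), and the Tnf call ended in 5 of 16 fits that left out 1 library (-1.23 to -1.003). Neither Il1b nor Tnf was called in experienced mice. Il1rn, the natural antagonist of interleukin-1, was not tested. Its decoy receptor Il1r2 had a difference of -1.02 in experienced and -1.26 in naive mice and was not called.

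Downstream of the interferon receptors, 2 of 12 listed signalling genes were higher in experienced mice and 4 of 12 in naive mice, with none lower. Among all tested genes, 4.52% were higher and 8.26% lower in experienced mice, and 9.81% higher and 11.9% lower in naive mice. Usp18, a negative regulator of the type I interferon receptor, rose by 1.41 (SE 0.26) in experienced and 1.65 (SE 0.26) in naive mice, and Ptpn11, a phosphatase, by 0.44 in experienced mice. Ptpn11 was at 0.19 in naive mice, not called. Stat2 and Irf9, which act downstream of the type I receptor, rose in naive mice, by 0.70 and 0.49 on the log2 scale. The Stat2, Irf9 and Ptpn11 calls ended in 4, 8 and 5 of 16 fits that left out 1 library, and by limma on log2(TPM + 1), where Ptpn11 was at 0.19 in experienced mice (adjusted p = 0.751). Of 12 interferon target genes, 4 rose in experienced and 7 in naive mice and none fell. Irf7, which amplifies interferon production, rose by 1.69 in experienced and 2.33 in naive mice, and Ifitm3, a membrane restriction factor, by 1.88 in experienced and 1.72 in naive mice. Bst2 (tetherin) rose by 1.62 in experienced and 1.09 in naive mice, and Isg15, a ubiquitin-like protein, by 1.55 in experienced and 1.99 in naive mice.

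For the interleukin-1 receptor, Peli1, a ubiquitin ligase of the pathway, fell by 0.53 in experienced and 0.63 in naive mice, and of 13 listed genes 1 was higher and 2 lower in experienced mice and 0 higher and 1 lower in naive mice. Irak2 fell by 0.86 and Myd88, the adaptor, rose by 0.71 in experienced mice, calls that ended in 4 of 16 left-out fits each, by limma on log2(TPM + 1) and in the fit of only the experienced groups. In naive mice Irak2 was at -0.38 and Myd88 at 0.39, neither of them called. For the TNF receptors, Tnfaip3, the A20 ubiquitin-editing inhibitor, rose by 2.15 in experienced (SE 0.41) and 1.95 in naive mice (SE 0.41). Traf1 fell by 1.76 in naive mice and Cyld, a deubiquitinase, by 0.46 in experienced mice, with calls that ended in 1 and 4 of 16 fits and by limma on log2(TPM + 1), and 1 of 17 listed genes rose and 1 fell in each kind of mouse. Cyld was at -0.33 in naive mice, not called. For the interleukin-6 receptor, Gab1, a docking protein, fell by 1.16 in experienced and 0.95 in naive mice, and Socs3, its feedback inhibitor, was not called (1.07 in experienced, 0.70 in naive mice). Of the 10 listed genes of this receptor, 1 was higher and 2 lower in experienced mice, and 0 higher and 2 lower in naive mice. Of 11 tested NF-kB targets, 5 rose in experienced mice, and 4 rose and 1 fell in naive mice, and of 10 Stat3 targets 3 rose in each. The shares over all tested genes were 4.52% higher and 8.26% lower in experienced mice, and 9.81% and 11.9% in naive mice.

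Relatives of the receptors are listed here by count, out of those abundant enough to test. Beside them, 4.52% of all tested genes were higher and 8.26% lower in experienced mice, and 9.81% and 11.9% in naive mice. Counts near these shares say nothing particular of a list. Of 6 tested other members of the interleukin-1 receptor family, 1 was higher and 1 lower in experienced mice and 1 was higher and 4 were lower in naive mice: Il1rl1, the interleukin-33 receptor, rose by 1.92 in experienced (a call that ended in 11 of 16 left-out fits) and 3.96 in naive mice, and Il18r1, a chain of the interleukin-18 receptor, fell by 1.296 in experienced (ended in 3 of 16) and 1.99 in naive mice. Of 17 other TNF receptor superfamily genes, 2 were lower in experienced mice, and 1 was higher and 8 lower in naive mice. Tnfrsf26 fell by 1.06 in experienced and 1.58 in naive mice, and Cd27, a receptor of lymphocytes and progenitors, by 0.61 in experienced (ended in 11 of 16) and 0.93 in naive mice. Of 5 other class II cytokine receptors, 1 was lower in experienced and 2 in naive mice, with Il10ra, the ligand-binding chain of the interleukin-10 receptor, at -1.71 in experienced and -1.80 in naive mice. Of 8 gp130-related receptors, 2 were lower in experienced mice, and 1 was higher and 3 lower in naive mice, and Csf3r, the receptor for granulocyte colony-stimulating factor, was lower at -0.89 in experienced (ended in 2 of 16) and -1.301 in naive mice. Of 8 genes for receptor shedding and decoys, Timp3, an inhibitor of metalloproteases, was higher by 1.70 in experienced mice (ended in 2 of 16), while Sigirr, an inhibitory member of the interleukin-1 receptor family, was at -0.54 in experienced mice, not called, and fell by 1.23 in naive mice (ended in 7 of 16). Timp3 was at 1.08 in naive mice, not called. In the fit of only the experienced groups the calls of Il10ra (-1.70, adjusted p = 0.0542), Il1rl1, Cd27, Csf3r and Timp3 ended in those mice.

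**Figure D5:**
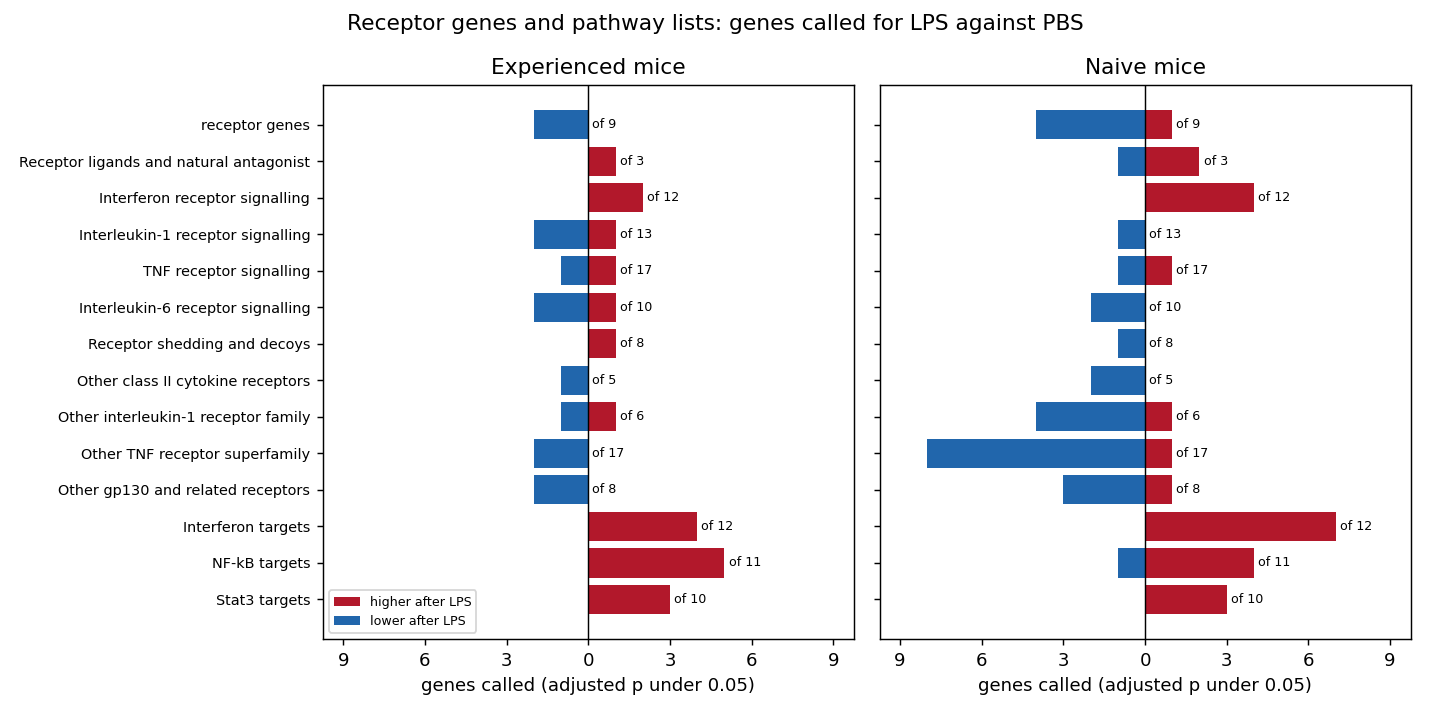
Number of genes called higher (right of 0) and lower (left of 0) after LPS among the receptor genes and each pathway list, with the number tested beside each bar, for experienced mice and naive mice. Interferon targets were higher in 4 of 12 genes in experienced and 7 of 12 in naive mice, while the receptor genes had 2 lower in experienced mice and 1 higher and 4 lower in naive mice. All tested genes had 4.52% higher and 8.26% lower in experienced mice, and 9.81% and 11.9% in naive mice.

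Some markers of other cells moved with LPS in the same libraries. The shares of all tested genes were 4.52% higher and 8.26% lower in experienced mice, and 9.81% and 11.9% in naive mice. Counts near those shares say nothing particular of a cell type. Marker numbers are of those abundant enough to test, such as 2 of 6 listed for stroma and 4 of 7 for T and NK cells. Of 6 basophil and mast cell markers, 4 were higher in experienced mice and 6 in naive mice, and their summed TPM was 163.4 to 307.6 in experienced LPS against 35.6 to 116.9 in experienced PBS libraries, and 219 to 475.7 in naive LPS against 32.1 to 62.2 in naive PBS libraries. Megakaryocyte markers were higher in 2 of 5 in each kind of mouse. The median log2 difference of these 5 was 1.085 in experienced and -0.55 in naive mice, where the list did not rise as a whole. Of 9 markers of the sorted cells, 1 was higher and 5 lower in each, with summed TPM of 571 to 677 in experienced LPS against 734 to 1101 in experienced PBS libraries and 550.2 to 802 in naive LPS against 868 to 1064 in naive PBS libraries. Of 6 mature neutrophil markers, 1 was higher in experienced mice, and 2 were higher and 1 lower in naive mice. The median log2 difference of these 6 was -1.17 in each kind of mouse, so the list did not rise as a whole. Of 10 monocyte markers 1 was higher in experienced and 1 lower in naive mice, and of 5 B cell markers 0 were called in experienced and 2 were lower in naive mice. Of 4 markers of T and NK cells and of 4 of endothelial cells, 1 was lower in each kind of mouse. Of 5 erythroid markers 1 was higher in naive mice, and of 2 stroma markers 0 were called. No marker was at 0 in every library. The part of these cells in the receptor differences was not tested.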

How the data were processed

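Bulk RNA-seq of sorted HSPCs was analysed in 16 libraries, 1 table per biological replicate, with groups and replicate numbers from the sample titles. The labels list 2 technical samples per biological replicate, and no source used here says whether their reads were merged. The labels name a droplet single-cell kit for the libraries, although each table holds 1 value per gene, so the tables were treated as bulk. Per the submitters' processing notes, the processing used Trim Galore 0.6.7, STAR 2.7.10a and RSEM 1.3.1 on GRCm38, while the strand setting and annotation release were not named.

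The deposited tables give RSEM expected counts (estimates, often fractional), TPM, which the authors' pipeline scaled for transcript length, and a mean transcript length in bases, per the file headers. These were rounded, and filterByExpr kept 15186 genes, with 99.928% of counts. After TMM scaling, the quasi-likelihood test of edgeR 4.0.16 (R 4.3.3) was run on all 16 libraries with a mean for each group, and a gene was called if its Benjamini-Hochberg adjusted p, over all tested genes, was under 0.05. CPM were scaled by TMM too. Simulated data were used to check the test. Alternatives were DESeq2 1.42.0, limma 3.58.1 on log2(TPM + 1) and log2(TPM + 0.1), other scaling, no filter, only the groups compared, a replicate block and leaving out libraries.

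The receptor genes and the gene lists were chosen with earlier results of these data known, from pathway membership. Named genes were the 9 receptor genes, up to 4 called members of each list with the lowest adjusted p per contrast, 6 genes fixed by name, the 2 genes most correlated with each receptor gene, and neighbours within 100 kb. Only some of these are described. Gene coordinates are from GENCODE's GRCm38 annotation. RSEM divides reads shared between genes, so values of near-identical copies are uncertain. A gene of the signalling lists is counted in them but is not reported here by name.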

Additional observations from a re-analysis of the deposited data

Results flagged for a closer look

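Within groups of 4 libraries, 14 of 84 sets of values had 1 library whose gap to its nearest neighbour took up most of the range of the group. The critical ratio was 0.829, which chance passes in about 1 in 20 independent sets. These sets were not independent, since CPM and TPM of a gene in the same libraries were counted separately. Lengths were searched only for Ifnar1, Ifnar2 and Tnfrsf1a, not for all receptor genes. The count of flags therefore cannot be compared with that rate. In experienced LPS replicate 4, Ifnar1 had 48.0 CPM (others 63.0 to 65.2) and 40.2 TPM (others 20.2 to 22.2) at an estimated length of 1577 bases (others 3443 to 3579). In the same library Tnfrsf1a had 36.7 CPM (others 86.5 to 94.5), Il1rap had 8.58 TPM (others 4.76 to 5.33) and Ifnar2 had a length of 1457 bases (others 1837 to 1898). In experienced PBS replicate 4, Tnfrsf1a had 61.5 CPM (others 97.2 to 99.8) and 50.9 TPM (others 69.3 to 70.8), and Ifnar2 a length of 1679 bases (others 1896 to 1919). In experienced PBS replicate 3, Il1rap had 8.24 TPM (others 5.62 to 5.86). In naive LPS replicate 2, Tnfrsf1a had 43.0 CPM (others 69.4 to 72.0) and Ifnar1 a length of 2446 bases (others 3357 to 3500). In naive LPS replicate 3, Tnfrsf1b had 58.8 CPM (others 45.1 to 47.4). In naive PBS replicate 4, Il1rap had 21.3 CPM (others 18.4 to 18.5). Experienced LPS replicate 4, experienced PBS replicate 4 and naive LPS replicate 2 were also the libraries with the highest mitochondrial share of their groups.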

How the results depend on the processing

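Of 1386 values of receptor genes under alternatives, 1355 stayed on their side of the threshold, 19 lost the call and 12 gained it. The values covered 54 results, of which 5 in naive and 2 in experienced mice were called in the analysis as reported. Only those calls could be lost, and most other results lay far from the threshold. The share that stayed therefore says little of how firm the calls were. Of values called in the analysis as reported, 0 changed sign, while 113 uncalled values did. By limma on log2(TPM + 1) and on log2(TPM + 0.1), 0 and 0 receptor genes were called in experienced mice after LPS, and 1132 and 1107 of all genes, with 1880 and 1772 in naive mice. In the fit of only the groups compared, 1 receptor gene and 1179 of all genes were called in experienced mice, where Il6ra was lost (adjusted p = 0.0788). Leaving out 1 library or both experienced libraries of replicate 4, the calls in experienced mice ran from 1 to 2 for receptor genes and from 1065 to 3360 for all genes, and in naive mice from 2089 to 4803 for all genes. By limma on log2(TPM + 1) without experienced LPS replicate 4, 1 receptor gene was called in experienced mice, and of all genes 1 between experienced and naive PBS and 1 in the interaction. DESeq2's Wald test called 2 genes after PBS, 2 after LPS, 2 averaged and 1 in the interaction for experienced against naive mice, limma on log2(TPM + 1) called 1 after PBS, and the fit without both experienced libraries of replicate 4 called 1 after LPS, against 0 in each single left-out library.

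Deviations from group means of same-numbered libraries correlated at -0.22 to 0.32, with 4 of 24 pairs over 0.1. Libraries of other numbers correlated at -0.39 to 0.32, with 18 of 72 pairs over 0.1. In all, 4 of 16 libraries correlated best with their own number. The labels do not say whether equal numbers mark a shared batch, and these correlations cannot settle it. With a replicate block, 2 receptor genes and 1592 of all genes were called in experienced mice, and 5 receptor genes and 2920 of all genes in naive mice. By CPM averaged over all 16 libraries, Ifngr2 had the rank 8 and Il6ra the rank 7, an order that differed between groups. The receptor genes had at least 81 expected counts in every library, and the part of depth in the calls was not tested.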
